A study of Mus musculus with 4 samples.

Results

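The 10 integrin chain genes that white blood cells are best known for were examined in sorted mouse bone marrow cells: the alpha chains Itga4, Itga5, Itga6, Itgal, Itgam and Itgax and the beta chains Itgb1, Itgb2, Itgb3 and Itgb7. They were chosen by name from the 23312 genes of each library, and all 10 were present. The 16 other integrin chain genes listed served for comparison. Messenger RNA was sequenced from B220+CD43+ bone marrow cells, which the labels call pro-B cells, the stage that rearranges the immunoglobulin heavy chain. The mutant mice were Cnot3 fl/fl, with loxP-flanked alleles of Cnot3, and the control mice were Cnot3 +/+. Both genotypes were C57BL/6 and carried RERTCre, a Cre recombinase that tamoxifen switches on, and all mice were injected with 1 mg tamoxifen on days 1, 2, 4 and 7 and analysed on day 10, so the controls share Cre and tamoxifen. The CNOT3 protein belongs to the CCR4-NOT complex, which shortens the poly(A) tails of mRNAs. Each genotype had 2 libraries, which the design text calls individual replicates, and the labels give neither the age of the mice nor which exons of Cnot3 were flanked. The labels name no cell type to which RERTCre is limited, so Cre may also have been active in other cells of the mice, which was not tested.

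Integrins are adhesion receptors made of 1 alpha and 1 beta chain, and a chain reaches the cell surface only with a partner. The beta2 chain Itgb2 pairs with the alpha chains of LFA-1 (Itgal), Mac-1 (Itgam), p150,95 (Itgax, also called CD11c) and with Itgad. The beta1 chain pairs with Itga4, Itga5 and Itga6, the beta7 chain with Itga4 and Itgae, and the beta3 chain with Itgav or the platelet chain Itga2b. In bone marrow, B-cell precursors hold on to stromal cells mainly through the alpha4 beta1 pair and its ligand VCAM-1, whereas CD11b (the product of Itgam) and CD11c are used as markers of myeloid and dendritic cells.

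The values were FPKM (a fragment count divided by transcript length and library size), so levels can be set beside each other per length, but the files hold no read counts and the absolute depth is unknown. The ratio of low values between libraries gave an estimate of relative depth, between 0.746 and 1 with the lowest in Cnot3 +/+ replicate 1, but a single ratio held for only 8.68% to 12.1% of the genes under 0.3 FPKM (tolerance 0.5%). That library also carried Y-linked transcripts and almost no Xist (0.0242 FPKM), while Xist was at 54.3 to 63.1 FPKM in the other 3. Cnot3 itself was at 39.0 and 40.3 FPKM in the Cnot3 fl/fl libraries, against 41.6 and 39.3 FPKM in the Cnot3 +/+ ones, and since the flanked exons are not named this does not check the genotype labels.

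The gate's own genes were present in all libraries. Ptprc, which encodes CD45 with its isoform B220, was at 280.8 and 262.3 FPKM in the Cnot3 fl/fl libraries, against 257.0 and 227.2 FPKM in the Cnot3 +/+ ones, and Spn, which encodes CD43, at 226.6 and 213.6 FPKM in the Cnot3 fl/fl libraries, against 186.6 and 177.4 FPKM in the Cnot3 +/+ ones. Values per gene do not separate isoforms, so that of Ptprc cannot show that the B220 gate held. The labelled cell type was only partly borne out by its markers. All 14 B-lineage markers were detected, but plasmacytoid dendritic cell markers were far more abundant: the 14 B-lineage genes summed to 902.8 and 863.9 FPKM in the Cnot3 fl/fl libraries, against 1171 and 1638 FPKM in the Cnot3 +/+ ones, and the 10 plasmacytoid genes to 8483 and 10013 FPKM in the Cnot3 fl/fl libraries, against 10754 and 10274 FPKM in the Cnot3 +/+ ones. The lists hold different genes, so these sums do not measure how many cells of each type were present. The sum of the B-lineage genes was lower in both Cnot3 fl/fl libraries, and 6 of the 14 were called lower, beside 3.28% of all genes tested. Libraries of the genotypes overlapped for 2 of the 14, and without overlap 11 were lower and 1 higher in Cnot3 fl/fl. Of all tested genes, 31.7% were lower and 32.7% higher without overlap. Dntt, the most abundant, was at 243.8 and 254.7 FPKM in the Cnot3 fl/fl libraries, against 215.9 and 217.3 FPKM in the Cnot3 +/+ ones, and did not pass the test (limma adjusted p = 0.18). The integrin values below are therefore those of the sorted mixture, and in such bulk samples fewer cells of a type and less RNA per cell cannot be told apart.

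**Figure D1:**
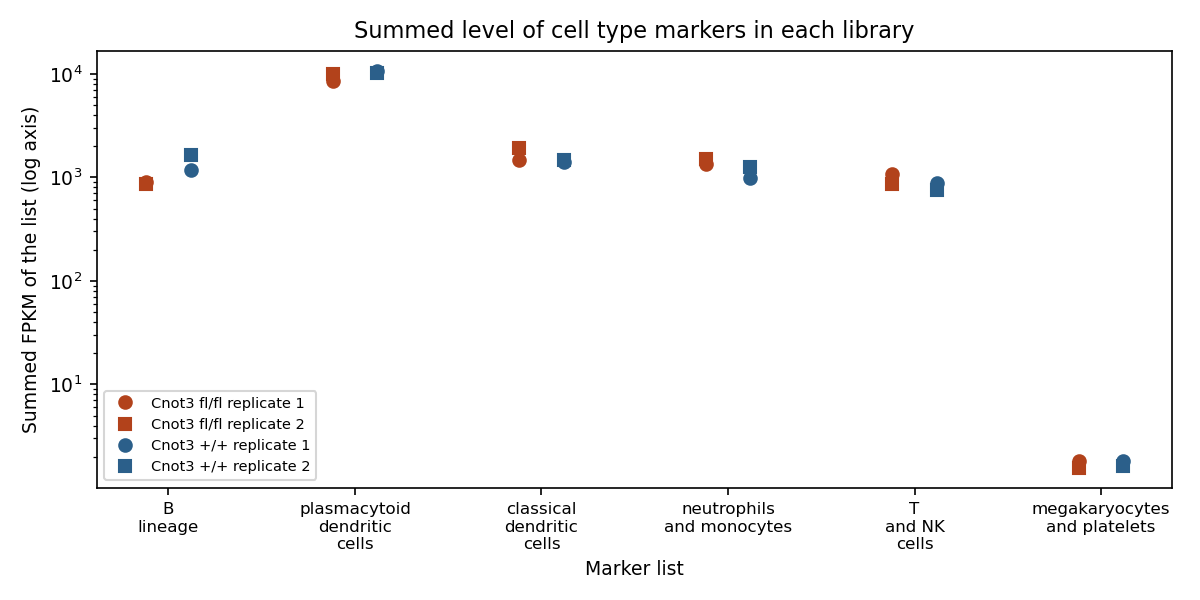
Summed FPKM (log axis) of 6 marker lists in each library, with Cnot3 fl/fl libraries (red) left of Cnot3 +/+ libraries (blue) and circles and squares for replicates 1 and 2. Plasmacytoid dendritic cell markers lie highest, between 8483 and 10754 FPKM, and megakaryocyte and platelet markers lie lowest, between 1.57 and 1.82 FPKM.

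Itgal, Itgam, Itgax and Itgad lie on chromosome 7. In the files' mm9 locus column Itgal spans 134439773 to 134478651, Itgam 135206153 to 135262005, Itgax 135273081 to 135294171 and Itgad 135317459 to 135349880, so that 11.1 kb separate Itgam from Itgax and 23.3 kb Itgax from Itgad (the numbering base of the starts is not stated there). The other chains lie apart from these in mm9: Itgb2 on chromosome 10 (76993092 to 77028419), Itga4 and Itga6 on chromosome 2 (79095582 to 79269145 and 71625139 to 71694815), Itga5 and Itgb7 on chromosome 15 (103174717 to 103197179 and 102046425 to 102062366), Itgb1 on chromosome 8 (131209553 to 131257479) and Itgb3 on chromosome 11 (104469313 to 104531785). The promoters of the neighbours Itgam and Itgax are shown because both genes had higher values in both Cnot3 fl/fl libraries. They are the 250 bases before the RefSeq start, from GRCm38.p6, a different build from the files' mm9, on the plus strand, at chr7:128062390-128062639 for Itgam and chr7:128129300-128129549 for Itgax. Capitals mark GAGGAA, a sequence that the myeloid transcription factor PU.1 can bind, or its reverse complement TTCCTC.
Itgam promoter: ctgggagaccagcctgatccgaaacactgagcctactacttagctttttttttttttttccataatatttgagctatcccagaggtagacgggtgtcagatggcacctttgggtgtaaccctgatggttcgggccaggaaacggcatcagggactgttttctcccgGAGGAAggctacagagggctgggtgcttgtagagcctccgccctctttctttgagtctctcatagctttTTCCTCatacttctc
Itgax promoter: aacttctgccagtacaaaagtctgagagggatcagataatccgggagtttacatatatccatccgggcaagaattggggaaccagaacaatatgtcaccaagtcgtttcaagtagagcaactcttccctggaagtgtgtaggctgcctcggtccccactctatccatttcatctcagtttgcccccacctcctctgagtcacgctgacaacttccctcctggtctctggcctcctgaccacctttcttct
The Itgam window holds 2 such matches, starting 84 and 15 bases before the start, and the Itgax window holds none. Of 32841 RefSeq promoter windows of this length, 23.3% hold at least 1, so these matches are a description and not a site. The Sp1-type sequence GGGCGG, or CCGCCC, occurs once in the Itgam window, 47 bases before the start, not at all in that of Itgax, and in 32.7% of all windows. Promoters were matched for 6 of the 10 members.

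The 4 alpha chains are relatives, and reads that fall in identical sequence can be assigned to either gene. Between the longest GENCODE M21 coding sequences, Itgam and Itgax agreed at 65.5% of aligned bases and Itgal and Itgax at 61.6%, with no stretch of 50 bases in common, and this also held for every pair of beta chains compared. Itgax and Itgad agreed at 74.0% and shared 11.1% of the 50-base stretches of Itgax. The longest run that they share base for base is shown because reads within it cannot tell the genes apart. It is 188 bases long and lies in 3 coding exons, in Itgax at chr7:128135612-128135630, chr7:128135718-128135860 and chr7:128136037-128136062 and in Itgad at chr7:128189340-128189358, chr7:128189445-128189587 and chr7:128189764-128189789 (GRCm38, plus strand).
Itgax and Itgad shared run: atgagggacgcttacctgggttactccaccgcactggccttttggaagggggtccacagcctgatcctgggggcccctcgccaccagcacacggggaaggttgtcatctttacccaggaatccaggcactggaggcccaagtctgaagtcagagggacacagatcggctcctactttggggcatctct
No source used here says how such reads were counted, so the values of Itgad, the scarcer of the pair, and of Itgax are uncertain in that respect.

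The mean levels of the 10 chains ran between 2.10 and 228.2 FPKM in the Cnot3 fl/fl libraries, against 2.05 and 238.6 FPKM in the Cnot3 +/+ ones, and kept much the same order in both genotypes. In Cnot3 fl/fl libraries the order of the mean levels, from high to low, was Itgb7, Itgal, Itgax, Itgb2, Itgb1, Itga4, Itgb3, Itgam, Itga5 and Itga6, and no neighbours in that order overlapped. In Cnot3 +/+ libraries Itgal came before Itgb7 and Itgb2 before Itgax, and the other genes kept their places. There Itgax and Itgb1 overlapped, at 76.2 to 97.0 FPKM and 70.7 to 81.2 FPKM, and the other neighbours did not. Itgb7 and Itgal were above 97.8% and 97.6% of the 11017 genes tested by mean level, whereas Itgam was above 33.0%, Itga5 above 20.7% and Itga6 above 8.36%.

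**Figure D2:**
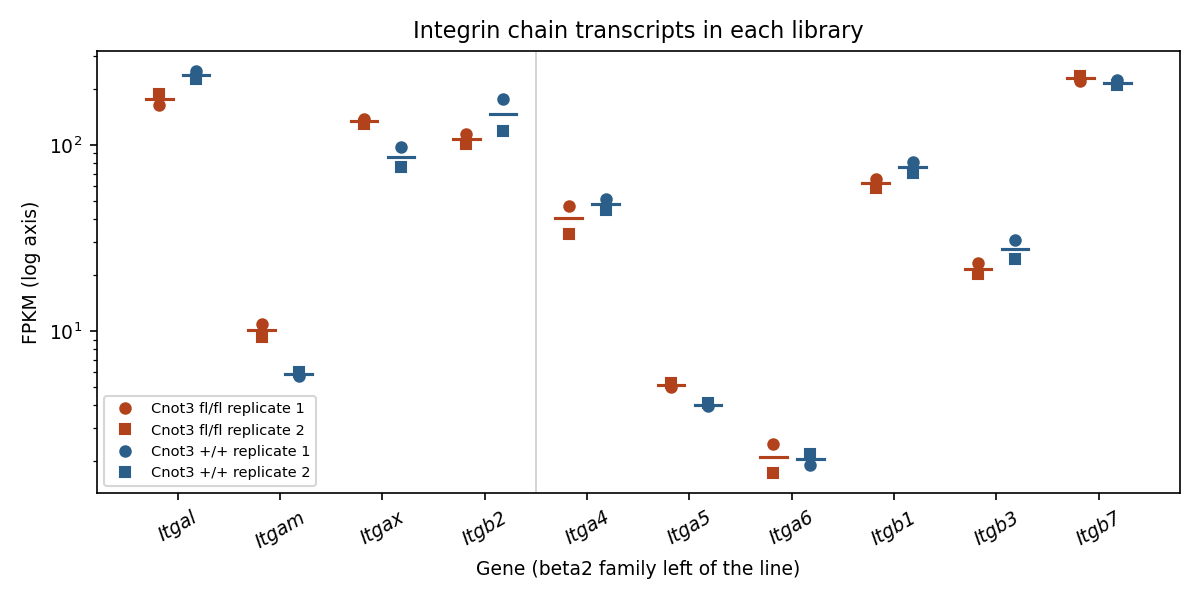
FPKM (log axis) of the 10 integrin chains in each library, Cnot3 fl/fl (red) left of Cnot3 +/+ (blue) for each gene, with circles and squares for replicates 1 and 2 and a line at the mean. Itgam, Itgax and Itga5 lie higher in both Cnot3 fl/fl libraries, Itgal, Itgb1, Itgb2 and Itgb3 lie lower, and Itga4, Itga6 and Itgb7 overlap.

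Of the 10 chains, all of which had a mean of at least 1 FPKM and were tested, Itgam rose, none fell and 9 did not pass the test (limma on log2(FPKM + 1), Benjamini-Hochberg adjusted p under 0.05 over all 11017 genes). Over all genes tested 6.22% were called higher and 3.28% lower in Cnot3 fl/fl, 9.49% in either direction, so 1 call among 10 chains is near the background. With any 1 library left out, 2 to 18 genes of the table were called higher, 0 to 13 lower and none of the 10 chains in either direction. At an unadjusted p under 0.05 there were 4 chains, Itga5, Itgam, Itgax and Itgal, beside 3722 genes of the table, and Itgal was the 1 with lower values. The libraries of the genotypes did not overlap for 7 chains, 3 higher and 4 lower, and of all tested genes 64.4% had that property, 32.7% higher and 31.7% lower. The authors' deposited table marked 1 of the 10 as significant, Itgam, and 6.63% of the genes tested here. The median log2 fold change was -0.12 over the 10 chains and -0.01 over all genes tested. With 2 libraries a genotype, an exact permutation test of a single value cannot go below p = 0.33.

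**Figure D3:**
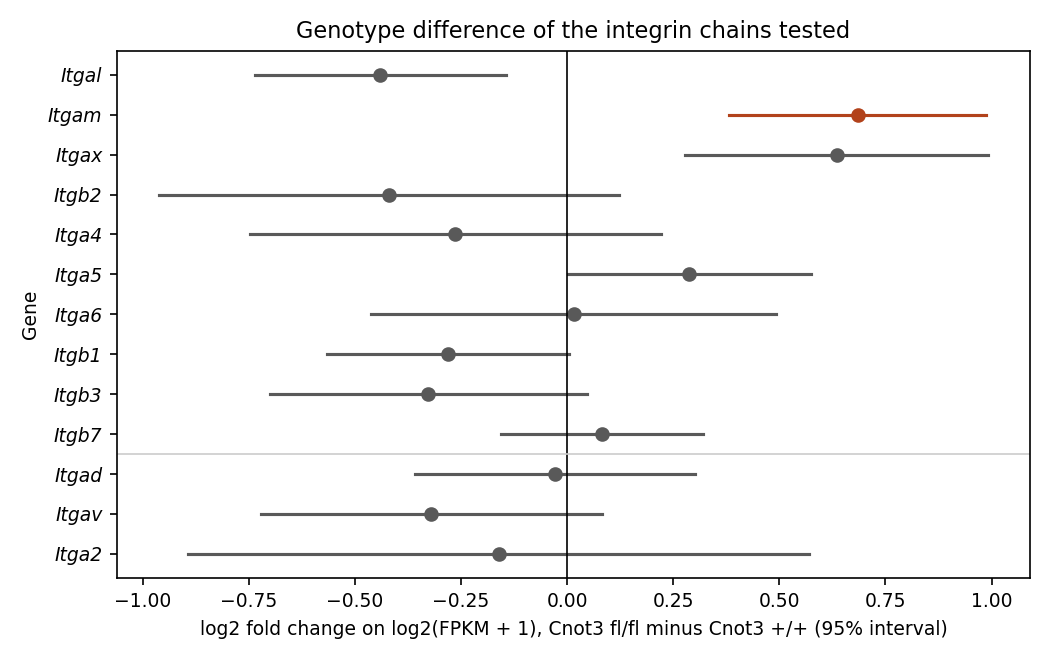
Log2 fold change on the log2(FPKM + 1) scale, Cnot3 fl/fl minus Cnot3 +/+, for the 10 chains (above the line) and the 3 other integrin chains tested (below it), with limma's 95% interval. Red marks an adjusted p under 0.05, reached by Itgam at 0.68, and Itgax and Itgal lie at 0.64 and -0.44 with intervals that leave out 0 before adjustment.

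Among the alpha chains of the beta2 family, Itgam rose, Itgax was higher and Itgal lower in both Cnot3 fl/fl libraries, and the last 2 did not pass the test. Itgam, the alpha chain of the complement receptor Mac-1 on neutrophils, monocytes and macrophages, was at 10.9 and 9.33 FPKM in the Cnot3 fl/fl libraries, against 5.77 and 6.06 FPKM in the Cnot3 +/+ ones. Both Cnot3 fl/fl values lay above both Cnot3 +/+ values, with means of 10.1 ± 1.14 FPKM for Cnot3 fl/fl, against 5.92 ± 0.207 FPKM for Cnot3 +/+ (SD, n = 2 each), 1.71-fold apart. The log2 fold change was 0.68 with a standard error of 0.12 (95% interval 0.38 to 0.99, limma adjusted p = 0.042), and in the authors' deposited table the q-value of Itgam was 0.019 and it was marked as significant. This call was lost in each fit that left out 1 library (adjusted p = 0.11 without either Cnot3 +/+ library, 0.22 without Cnot3 fl/fl replicate 1 and 0.21 without replicate 2), with no filter on low values (0.080) and without the mean-variance trend (0.054), while the log2 fold change stayed between 0.47 and 0.79. It held in 6 of the 13 alternatives run.

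Markers of neutrophils and monocytes were measured beside Itgam. Of 18 listed markers 17 were in the files and 14 were tested. Of these 14, 3 rose, none fell and 11 did not pass, beside 6.22% called higher and 3.28% lower over all genes tested. Their log2 fold changes, 10 positive and 4 negative, had a median of 0.61. Without overlap 8 lay higher and 1 lower, beside 32.7% higher and 31.7% lower over all genes tested. The 17 markers summed to 1339 and 1499 FPKM in the Cnot3 fl/fl libraries, against 991.9 and 1264 FPKM in the Cnot3 +/+ ones. None of the 17 was at 0 in all libraries. The sum is led by Ly6c2, which plasmacytoid dendritic cells also express, at 997.8 and 1247 FPKM in the Cnot3 fl/fl libraries, against 756.9 and 996.1 FPKM in the Cnot3 +/+ ones. The markers that rose, named after their values were seen, were the granule protease genes Elane and Ctsg and the co-receptor gene Cd14, at means of 5.06, 4.03 and 2.65 FPKM in the Cnot3 fl/fl libraries, against 1.95, 0.935 and 1.00 FPKM in the Cnot3 +/+ ones. The calprotectin genes S100a9, among the 3 most abundant, and S100a8, added after its values were seen, averaged 84.8 and 49.7 FPKM in the Cnot3 fl/fl libraries, against 83.1 and 49.8 FPKM in the Cnot3 +/+ ones, and both overlapped between the genotypes. Other markers of the list, also chosen with their values in view, did not pass. Mpo, Prtn3, Csf1r and Ccr2 were higher without overlap, with log2 fold changes of 1.04, 0.86, 1.10 and 0.91 (limma adjusted p = 0.068, 0.088, 0.051 and 0.13). The granule genes Camp, Ngp and Ltf had values in the other direction. Camp was at 10.8 and 7.25 FPKM in the Cnot3 fl/fl libraries, against 13.7 and 13.8 FPKM in the Cnot3 +/+ ones (log2 fold change -0.58, limma adjusted p = 0.11). Ngp and Ltf, with log2 fold changes of -0.21 and -0.28, overlapped. The part of these cells in the value of Itgam was not tested.

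Itgax, the alpha chain best known from dendritic cells, was at 138.1 and 130.2 FPKM in the Cnot3 fl/fl libraries, against 97.0 and 76.2 FPKM in the Cnot3 +/+ ones. Both Cnot3 fl/fl libraries lay above both Cnot3 +/+ libraries, with means of 134.1 ± 5.56 FPKM for Cnot3 fl/fl, against 86.6 ± 14.7 FPKM for Cnot3 +/+ (SD, n = 2 each), 1.55-fold apart. The log2 fold change of 0.64 (SE 0.14) did not pass (95% interval 0.28 to 0.99, limma adjusted p = 0.056), nor did the authors' deposited table call it (q-value 0.064). It passed in 2 of the 13 alternatives run, with an adjusted p of 0.042 at the lowest and 0.24 at the highest. Markers of classical dendritic cells were measured beside it: of 10 listed, 8 were tested, of which 2 rose, 1 fell and 5 did not pass, with a median log2 fold change of 0.67, and none was at 0 in all libraries. Over all genes tested, 6.22% were called higher and 3.28% lower. Those that rose were the transcription factor gene Zbtb46, at 3.82 and 4.19 FPKM in the Cnot3 fl/fl libraries, against 0.715 and 0.599 FPKM in the Cnot3 +/+ ones, and the dead-cell receptor gene Clec9a, at 55.8 and 51.4 FPKM in the Cnot3 fl/fl libraries, against 25.1 and 33.9 FPKM in the Cnot3 +/+ ones, both named after their values were seen. The lectin gene Clec10a fell, averaging 125.7 FPKM in the Cnot3 fl/fl libraries, against 190.9 FPKM in the Cnot3 +/+ ones. The list summed to 1473 and 1906 FPKM in the Cnot3 fl/fl libraries, against 1418 and 1465 FPKM in the Cnot3 +/+ ones. Cst3 led these sums, at 900.0 and 1167 FPKM in the Cnot3 fl/fl libraries, against 855.6 and 900.9 FPKM in the Cnot3 +/+ ones. Its values and those of Sirpa (log2 fold change -0.11) overlapped. Xcr1, under the filter, was at 0.126 and 0.149 FPKM in the Cnot3 fl/fl libraries, against 0.150 and 0.145 FPKM in the Cnot3 +/+ ones. Of the 8 tested, 5 lay higher and 1 lower without overlap, beside 32.7% higher and 31.7% lower over all genes tested. Of the 10 plasmacytoid markers 1 fell, none rose and 9 did not pass, beside 3.28% called lower over all genes tested. Their median log2 fold change was -0.19. The part of dendritic cells in the value of Itgax was not tested.

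Itgal, the alpha chain of LFA-1, which nearly all leukocytes carry, was at 163.5 and 188.2 FPKM in the Cnot3 fl/fl libraries, against 249.96 and 227.3 FPKM in the Cnot3 +/+ ones. Its Cnot3 fl/fl values lay below its Cnot3 +/+ values without overlap, with means of 175.8 ± 17.5 FPKM for Cnot3 fl/fl, against 238.6 ± 16.0 FPKM for Cnot3 +/+ (SD, n = 2 each). The log2 fold change of -0.44 (SE 0.11) did not pass (95% interval -0.74 to -0.14, limma adjusted p = 0.075, authors' deposited q-value 0.40). The shared beta chain Itgb2 was at 114.0 and 101.7 FPKM in the Cnot3 fl/fl libraries, against 176.1 and 118.4 FPKM in the Cnot3 +/+ ones. The Cnot3 fl/fl values were again the lower ones, but the Cnot3 +/+ replicates stood further apart from each other than Cnot3 +/+ replicate 2 stood from Cnot3 fl/fl replicate 1. The log2 fold change of Itgb2 was -0.42 with a standard error of 0.21 (95% interval -0.96 to 0.12, limma adjusted p = 0.23), but it was -0.14 without Cnot3 +/+ replicate 1 and -0.71 without Cnot3 +/+ replicate 2.

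The make-up of the beta2 family's alpha chains differed within libraries, a comparison that does not depend on how libraries were scaled to each other. Itgal made up 51.1% and 56.3% of the summed FPKM of Itgal, Itgam, Itgax and Itgad in Cnot3 fl/fl libraries and 69.3% and 71.9% in Cnot3 +/+ libraries. Itgax made up 43.1% and 38.9% in Cnot3 fl/fl and 26.9% and 24.1% in Cnot3 +/+ libraries. The share of Itgam was 3.42% and 2.79% in Cnot3 fl/fl and 1.60% and 1.92% in Cnot3 +/+ libraries. That of Itgad overlapped, at 2.36% and 2.04% in Cnot3 fl/fl and 2.22% and 2.12% in Cnot3 +/+ libraries. The genotypes did not overlap in the shares of Itgal, Itgax and Itgam, with differences in the mean of -16.9, 15.5 and 1.35 percentage points. These were larger than the SDs between 2 replicates (3.66 and 1.82 points for Itgal, 2.98 and 1.97 for Itgax and 0.447 and 0.224 for Itgam in Cnot3 fl/fl and Cnot3 +/+). Each of these 3 shares had p = 0.33 in a two-sided exact permutation test, the smallest that the design allows. Shares of 1 total move against each other by construction, so these are not independent differences.

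**Figure D4:**
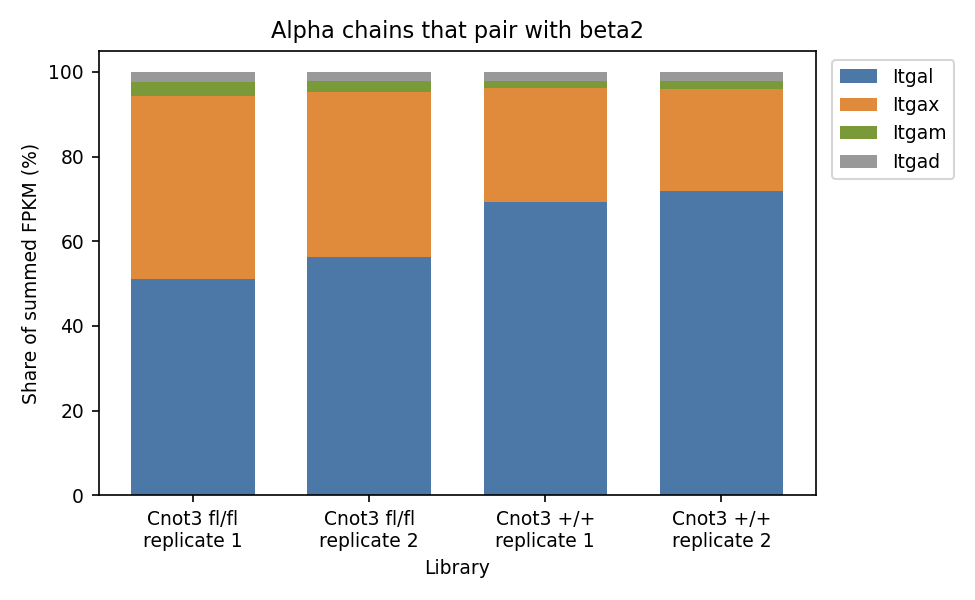
Share (%) of each beta2-pairing alpha chain in the summed FPKM of Itgal, Itgax, Itgam and Itgad, stacked for each library. Itgax takes 38.9% to 43.1% in the Cnot3 fl/fl libraries and 24.1% to 26.9% in the Cnot3 +/+ libraries, and Itgal the larger part of the rest.

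The summed level of the 4 alpha chains overlapped between the genotypes, at 320.0 and 334.6 FPKM in the Cnot3 fl/fl libraries, against 360.7 and 316.3 FPKM in the Cnot3 +/+ ones. Relative to Itgb2 the sum was 2.81 and 3.29 in Cnot3 fl/fl and 2.05 and 2.67 in Cnot3 +/+ libraries. The Cnot3 fl/fl ratios were both higher, though Cnot3 fl/fl replicate 1 lay only slightly above Cnot3 +/+ replicate 2, and the exact permutation p was again 0.33. Such a ratio compares transcripts summed over all cells of a library and does not measure pairs on a cell.

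Among the 10 chains, those of the beta1 and beta7 pairs differed less in log2 fold change than those of the beta2 family. Itgae, which also pairs with Itgb7, is not among the 10 and is given with the other chains below. Itga4, whose pairs bind VCAM-1, fibronectin and MAdCAM-1, was at 47.1 and 33.4 FPKM in the Cnot3 fl/fl libraries, against 51.5 and 44.5 FPKM in the Cnot3 +/+ ones. Cnot3 fl/fl replicate 1 lay between the Cnot3 +/+ libraries, so the genotypes overlapped. The log2 fold change was -0.26 (95% interval -0.75 to 0.22, limma adjusted p = 0.37), but with a Cnot3 fl/fl library left out it was -0.50 (replicate 1) or -0.02 (replicate 2), and with Cnot3 +/+ replicate 1 left out -0.16. Its main partner Itgb1 was at 65.8 and 58.7 FPKM in the Cnot3 fl/fl libraries, against 81.2 and 70.7 FPKM in the Cnot3 +/+ ones. The Cnot3 fl/fl values were lower without overlap, with a log2 fold change of -0.28 that did not pass (95% interval -0.57 to 0.00417, limma adjusted p = 0.15) and was -0.18 without Cnot3 +/+ replicate 1. Itgb7, the partner in gut homing and in binding E-cadherin, was the most abundant chain in Cnot3 fl/fl libraries, at 221.6 and 234.7 FPKM, and was at 222.2 and 208.9 FPKM in Cnot3 +/+ libraries. Its values overlapped, and the interval of its log2 fold change, -0.16 to 0.32, bounds any difference more closely than that of any other of the 10 chains (limma adjusted p = 0.56). With 1 library left out, its log2 fold change was 0.04 to 0.13.

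Within libraries, Itgb7 was 3.37 and 4.00 times Itgb1 in Cnot3 fl/fl and 2.74 and 2.96 times Itgb1 in Cnot3 +/+ libraries. The ratio was higher in both Cnot3 fl/fl libraries (two-sided exact permutation p = 0.33). Itga4 relative to the sum of Itgb1 and Itgb7 was 0.164 and 0.114 in Cnot3 fl/fl and 0.170 and 0.159 in Cnot3 +/+ libraries, and here the genotypes overlapped (p = 0.667 in the same exact test).

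The fibronectin receptor chain Itga5 was low, at 5.01 and 5.27 FPKM in the Cnot3 fl/fl libraries, against 3.95 and 4.11 FPKM in the Cnot3 +/+ ones. Both Cnot3 fl/fl values were higher, with a log2 fold change of 0.29 that did not pass (95% interval 0.00267 to 0.57, limma adjusted p = 0.15). The laminin receptor chain Itga6 was the lowest of the 10, at 2.48 and 1.73 FPKM in the Cnot3 fl/fl libraries, against 1.91 and 2.198 FPKM in the Cnot3 +/+ ones. Its values overlapped (log2 fold change 0.02, 95% interval -0.46 to 0.49, limma adjusted p = 0.96), and the sign turned negative under quantile normalization and without Cnot3 fl/fl replicate 1 or Cnot3 +/+ replicate 1.

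Itgb3, the beta chain of the vitronectin receptor and, with Itga2b, of the platelet fibrinogen receptor, was at 23.2 and 20.2 FPKM in the Cnot3 fl/fl libraries, against 30.7 and 24.4 FPKM in the Cnot3 +/+ ones. Its Cnot3 fl/fl values were lower without overlap, and the log2 fold change of -0.33 did not pass (95% interval -0.70 to 0.05, limma adjusted p = 0.19), and was -0.17 without Cnot3 +/+ replicate 1. Its possible alpha partners were scarcer. Itgav was at 3.44 and 2.78 FPKM in the Cnot3 fl/fl libraries, against 4.50 and 3.75 FPKM in the Cnot3 +/+ ones (log2 fold change -0.32, limma adjusted p = 0.22), and Itga2b at 0.483 and 0.426 FPKM in the Cnot3 fl/fl libraries, against 0.425 and 0.393 FPKM in the Cnot3 +/+ ones. The 8 megakaryocyte and platelet markers summed to 1.82 and 1.57 FPKM in the Cnot3 fl/fl libraries, against 1.81 and 1.63 FPKM in the Cnot3 +/+ ones.

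Of the 16 other integrin chains, 3 reached a mean of 1 FPKM and none passed the test in limma, with 0 at an unadjusted p under 0.05. Besides Itgav these were the beta2 partner Itgad, at 7.55 and 6.81 FPKM in the Cnot3 fl/fl libraries, against 8.01 and 6.71 FPKM in the Cnot3 +/+ ones, and the collagen receptor chain Itga2, found on NK cells and platelets, at 2.86 and 1.86 FPKM in the Cnot3 fl/fl libraries, against 3.62 and 1.99 FPKM in the Cnot3 +/+ ones. Both overlapped between the genotypes. Itga11 and Itgb6 were listed at 0 in all libraries. Itgae and Itga10 were named after their values were seen. Itgae, the alphaE chain that pairs with Itgb7 and marks some dendritic and T cells, was at 1.04 and 1.95 FPKM in the Cnot3 fl/fl libraries, against 0.117 and 0.230 FPKM in the Cnot3 +/+ ones. It was under the filter, and in the fit with no filter its log2 fold change was 1.07 (limma adjusted p = 0.090). Itga10 was at 0.563 and 0.523 FPKM in the Cnot3 fl/fl libraries, against 1.10 and 0.993 FPKM in the Cnot3 +/+ ones (no filter, log2 fold change -0.41, limma adjusted p = 0.078).

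Of 52 listed genes that switch integrins on, signal from them or link them to actin, 45 were tested: 6 rose, 1 fell and 38 did not pass, beside 6.22% higher and 3.28% lower in the whole table, and the median log2 fold change was 0.10, beside -0.01 over all genes tested. Actn1, which encodes the actin cross-linker alpha-actinin-1 of adhesion sites, was at 64.9 and 63.7 FPKM in the Cnot3 fl/fl libraries, against 10.6 and 14.4 FPKM in the Cnot3 +/+ ones. This 5.14-fold difference in the mean was the widest of the list (log2 fold change 2.29, SE 0.15, limma adjusted p = 0.019). Flna, the filamin that binds beta chain tails, was at 130.5 and 121.1 FPKM in the Cnot3 fl/fl libraries, against 81.2 and 73.0 FPKM in the Cnot3 +/+ ones (log2 fold change 0.70, limma adjusted p = 0.036). Fermt3, the blood cell kindlin that activates integrins with talin and whose loss causes a leukocyte adhesion deficiency, was at 202.2 and 202.4 FPKM in the Cnot3 fl/fl libraries, against 150.8 and 136.2 FPKM in the Cnot3 +/+ ones (log2 fold change 0.49, limma adjusted p = 0.045). All of these were higher in both Cnot3 fl/fl libraries.

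The paxillin relative Lpxn, the Src family kinase gene Lyn and the integrin-linked kinase gene Ilk rose with log2 fold changes of 0.67, 0.57 and 0.40 (limma adjusted p = 0.042, 0.036 and 0.048). Skap2, an adaptor of integrin activation in myeloid cells, fell to 84.3 and 95.2 FPKM in Cnot3 fl/fl libraries, against 138.8 and 137.3 FPKM in Cnot3 +/+ libraries (log2 fold change -0.62, limma adjusted p = 0.040). Of these 7 genes, the authors' deposited table marked Actn1, Lpxn and Skap2 as significant, with q-values of 0.0022, 0.040 and 0.035. It also marked the tetraspanin gene Cd81, not called by limma and chosen with its values in view, at 8.20 and 9.43 FPKM in the Cnot3 fl/fl libraries, against 14.6 and 25.8 FPKM in the Cnot3 +/+ ones (limma adjusted p = 0.075). Without either Cnot3 fl/fl library 0 genes of the list were called higher, without either Cnot3 +/+ library 1, and none lower.

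**Figure D5:**
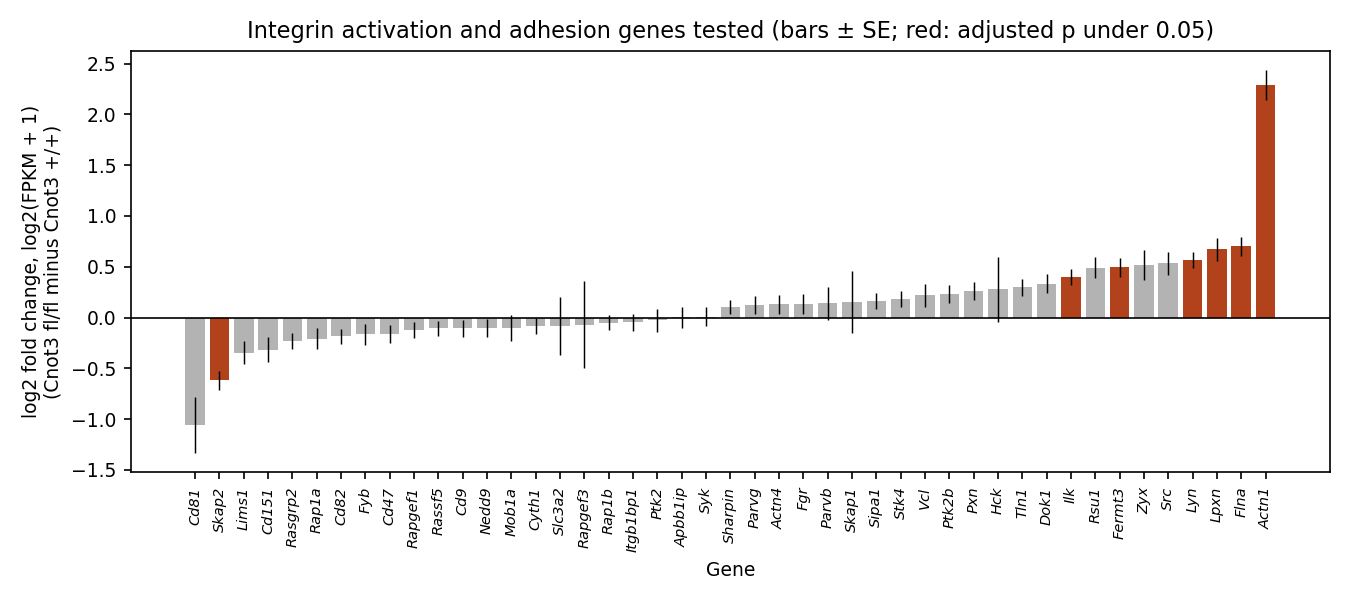
Log2 fold change on the log2(FPKM + 1) scale, Cnot3 fl/fl minus Cnot3 +/+, of the 45 tested integrin activation and adhesion genes, with bars at ± 1 standard error. Red bars passed the test, 6 above 0 led by Actn1 at 2.29 and 1 below 0, Skap2 at -0.62.

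Ligands of these integrins were mostly low, as 8 of 27 listed genes were tested. Of these, 2 fell, none rose and 6 did not pass, beside 3.28% lower and 6.22% higher over all genes tested, with a median log2 fold change of 0.02. Cdh1, which encodes E-cadherin, the ligand of the alphaE beta7 pair, was at 66.8 and 68.3 FPKM in the Cnot3 fl/fl libraries, against 91.3 and 87.0 FPKM in the Cnot3 +/+ ones (log2 fold change -0.39, limma adjusted p = 0.046). Tgfb1, whose latent form alphaV integrins can activate, was at 118.5 and 130.6 FPKM in the Cnot3 fl/fl libraries, against 174.4 and 171.5 FPKM in the Cnot3 +/+ ones (log2 fold change -0.47, limma adjusted p = 0.045). Both were lower in both Cnot3 fl/fl libraries, the authors' deposited table marked neither, and neither was called with any 1 library left out, with no filter or without the trend. The LFA-1 ligand gene Icam1 was at 51.0 and 51.9 FPKM in the Cnot3 fl/fl libraries, against 45.0 and 43.7 FPKM in the Cnot3 +/+ ones (log2 fold change 0.21, limma adjusted p = 0.12). Thy1 overlapped between the genotypes, at 44.3 and 25.4 FPKM in the Cnot3 fl/fl libraries, against 49.1 and 43.7 FPKM in the Cnot3 +/+ ones (limma adjusted p = 0.30).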

How the data were processed

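RNA was sequenced from 2 Cnot3 fl/fl and 2 Cnot3 +/+ libraries, grouped by their titles. Per the labels' protocols, total RNA was column purified and stranded mRNA libraries were amplified by PCR. Cufflinks 2.2.1 and Cuffnorm 2.2.1, with TopHat2 2.0.13, Bowtie2 2.2.3.0, bcl2fastq 1.8.4 and the build mm9, are listed per the submitters' processing notes, without their roles. Annotation and scaling are not stated. The authors deposited FPKM for every gene of every library, per the file headers. Their comparison table, also deposited, holds the genotypes' FPKM with p-values and q-values, and its test statistic score column, deposited by the authors, was not used. FPKM are not counts, so log2(FPKM + 1) of the 11017 genes averaging 1 FPKM or more was tested with limma 3.58.1 in R 4.3.3 (eBayes with trend, two-sided, genotype as the only term, 2 residual and 2.69 prior degrees of freedom, Benjamini-Hochberg over all genes tested) and checked on simulated data. Folds in words are ratios of mean FPKM, and log2 fold changes understate low genes. P-values measure only the spread between these libraries, which may be technical. All 10 chains were named. From the other lists, genes past the threshold and up to 4 with the smallest p were named, and from marker lists the most abundant and those at 0, of which 1 is not reported here. The members, lists and rules were chosen with earlier results of these data known. Promoters are RefSeq's (GRCm38.p6), coding sequences GENCODE M21's.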

Additional observations from a re-analysis of the deposited data

How the results depend on the processing

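Leaving out each library in turn, the whole table gave 2 to 18 genes called higher (685 with all libraries) and 0 to 13 lower (361), the 10 chains 0 to 0 higher, the ligands 0 to 0 lower, and the adhesion machinery 0 to 1 higher and 0 to 0 lower. With no filter these counts were 4, 1, 0, 0, 0 and 0, and without the trend 242, 69, 0, 0, 1 and 0. Robust eBayes called 2 chains higher, Itgam and Itgax. With the replicate block the counts were 456 higher over the table, 1 chain higher, 0 ligands lower and 2 machinery genes lower, and among the chains the adjusted p was 0.0524 for Itgam and 0.0487 for Itgax. Same-numbered libraries deviated together with r = 0.144 over only 2 pairs, so they share a number and are not taken as paired. Itga6 turned to -0.0084 under quantile normalization and lay between -0.16 and 0.19 over the fits that left out 1 library, negative where either replicate 1 was left out (-0.05 for the Cnot3 +/+ one). Of 128 pairs of a chain and an alternative, 116 kept direction and side of the threshold, 7 lost and 2 gained the call and 3 turned sign. The within-library shares and ratios kept their direction in every alternative run. With a minimum mean of 5 FPKM, Itga5 and Itga6 were not tested. Fewer libraries leave fewer degrees of freedom, and the cause of the other shifts was not tested. The absolute depth is unknown, which leaves the precision of low chains such as Itga6 unknown too.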

Other observations

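The remaining marker lists were read for other cells that carry these chains. Over all genes tested, 6.22% were called higher and 3.28% lower, and 64.4% had libraries that did not overlap between the genotypes. Of 15 T and NK cell markers, 2 rose in Cnot3 fl/fl, Cd8a and Cd5, and none fell, and the list summed to 1067 and 867.2 FPKM in the Cnot3 fl/fl libraries, against 887.1 and 753.3 FPKM in the Cnot3 +/+ ones. Cd8a made up 129.4 and 134.7 FPKM of these sums in the Cnot3 fl/fl libraries, against 15.7 and 25.7 FPKM in the Cnot3 +/+ ones. Without overlap 5 of the 15 lay higher and 1 lower, beside 32.7% and 31.7% over all genes tested. Besides Cd8a and Cd5, the 5 held Ncr1, Klrd1 and Gzmb, also named after their values were seen. Their log2 fold changes of 0.96, 0.91 and 0.84 did not pass (limma adjusted p = 0.18, 0.062 and 0.12). Cd4, the most abundant, was the 1 lower gene, with a log2 fold change of -0.44 that did not pass. The other 9 overlapped, among them the T-cell receptor complex genes Cd3e, Cd3g and Cd3d with log2 fold changes of -0.19, -0.55 and -0.16. Of 6 plasma cell markers, Sdc1 fell, with sums of 328.9 and 469.0 FPKM in the Cnot3 fl/fl libraries, against 432.4 and 964.8 FPKM in the Cnot3 +/+ ones. Of 4 erythroid markers tested, Tfrc fell, and the 8 listed summed to 103.5 and 118.5 FPKM in the Cnot3 fl/fl libraries, against 145.8 and 170.3 FPKM in the Cnot3 +/+ ones. Tfrc led these sums, at 81.0 and 77.6 FPKM in the Cnot3 fl/fl libraries, against 116.4 and 105.3 FPKM in the Cnot3 +/+ ones. The other 3 tested overlapped between the genotypes. Mast cell and basophil markers summed to 8.04 and 7.14 FPKM in the Cnot3 fl/fl libraries, against 5.63 and 5.78 FPKM in the Cnot3 +/+ ones, and stromal and endothelial markers to 133.3 and 126.4 FPKM in the Cnot3 fl/fl libraries, against 150.7 and 152.5 FPKM in the Cnot3 +/+ ones, with no call in limma in either list. Kit led the mast cell sums, at 7.13 and 5.21 FPKM in the Cnot3 fl/fl libraries, against 4.09 and 3.29 FPKM in the Cnot3 +/+ ones. Of the stromal and endothelial list only Pecam1, Cdh5 and Kdr were tested, and the others averaged under 1 FPKM. The genes named here for a call were chosen after their values were seen, and the part of these cells in the integrin values was not tested.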
